A study of Mus musculus with 16 samples.

Results

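The genes described here carry glucose into the cell, break it down to pyruvate and lactate, and divert it into the pentose phosphate pathway. The list was fixed by gene symbol and held 41 genes of 19 enzymatic or transport steps, all of them found among the 55416 genes of the read-count table. The transcripts of S1 and S3 erythroblasts were read from mouse foetal livers at embryonic day 13.5. S1 cells are early erythroid progenitors and S3 cells are basophilic erythroblasts, and both were sorted on Ter119 and CD71. Libraries came from 4 Nprl3+/+ embryos (WT; 2 male, 2 female), 2 Nprl3+/- embryos (Het; both male) and 2 Nprl3-/- embryos (KO; 1 male, 1 female), with 1 S1 and 1 S3 library from each embryo. The mutant allele is a constitutive deletion of the Nprl3 promoter region that leaves the α-globin enhancers in the introns of the gene in place, so every cell of a KO embryo, not the erythroid cells alone, carries the deletion. All mice were on a C57BL/6J background. The comparisons asked how the pathway changes as WT erythroblasts mature from S1 to S3, and how it differs without Nprl3 at either stage.

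Glucose enters through facilitative GLUT carriers and is trapped by hexokinases as glucose-6-phosphate. Glycolysis then splits it into triose phosphates and yields ATP, NADH and pyruvate, with phosphofructokinase and pyruvate kinase as regulated steps, while the pentose phosphate pathway takes glucose-6-phosphate to make NADPH and ribose phosphate. Mature red cells have no mitochondria and live on glycolysis, and they divert part of it through bisphosphoglycerate mutase to 2,3-bisphosphoglycerate, which lowers the oxygen affinity of haemoglobin. Many steps have several genes that encode isoenzymes. Nprl3 is a subunit of GATOR1, a complex that restrains the growth kinase complex mTORC1.

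Libraries held between 23331156 and 36035368 assigned counts at S1 and between 20666044 and 37609502 at S3. Part of the sample annotation names an embryonic stem cell line, whereas the sample titles name foetal liver, and the libraries carried the transcripts of erythroid cells. Summed erythroid markers came to 2582 to 9416 CPM (counts scaled to library size) in WT S1 libraries and to 174000 to 211700 CPM in WT S3 libraries. Nprl3 itself had 881 to 1588 counts in WT S1 libraries, 452 to 605 in Het S1 libraries and 13 to 32 in KO S1 libraries. At S3 its exons still gathered 1730 to 2069 counts in KO libraries against 2953 to 3883 in WT libraries, so the gene count does not check the deletion at that stage. Globin transcripts made up 10.0% and 10.6% of counts in the KO S3 libraries and 10.8% to 11.8% in the WT S3 libraries. Bulk libraries cannot tell fewer cells of a type from less RNA per cell.

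Levels are given as FPKM, the scaled CPM value divided by the summed length of the exons of a gene in kilobases, and values for WT embryos are listed in the order of embryos 0, 1, 5 and 8, for Het embryos 3 and 4, and for KO embryos 2 and 9. WT embryos 0 and 8 and KO embryo 9 are male. Differences are log2 fold changes from edgeR's quasi-likelihood test, with p-values adjusted over all genes tested, and a change was called at an adjusted p below 0.05.

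**Figure D1:**
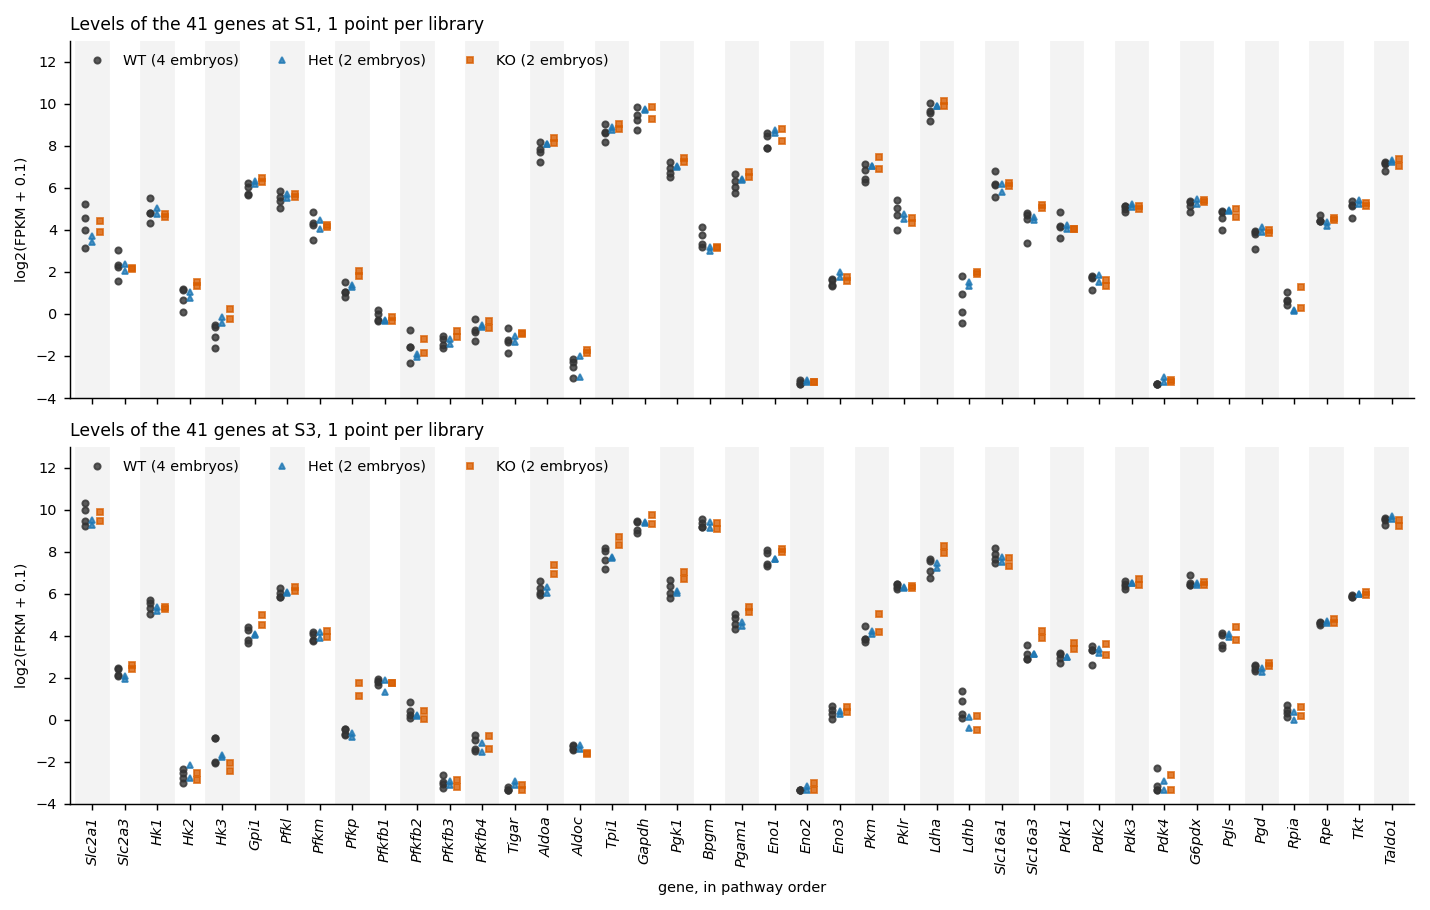
Level of each of the 41 genes, as log2(FPKM + 0.1), in every library at S1 (upper panel) and S3 (lower panel); black circles are WT, blue triangles Het and orange squares KO embryos. Slc2a1, Bpgm and Taldo1 stand among the highest genes at S3, whereas Ldha, Gapdh and Tpi1 are highest at S1.

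Promoter sequences are shown for genes whose level or isoform choice changed with maturation, since they hold the letters that erythroid and metabolic regulators are known to bind. Each is 150 bases of the window before a RefSeq start, located in GRCm39 by exact match and read 5′ to 3′ on the strand of the gene, and it ends before the first GENCODE start within that window. The Ldha and downstream Pklr stretches lie inside their genes as annotated, since other transcripts start further upstream. Capitals mark matches to the E-box CACGTG (bound by Myc and its relatives), the hypoxia response core ACGTG or GCGTG, the GATA site AGATAA or TGATAA, or the KLF1-type CCNCNCCC, on either strand, and every E-box also contains a hypoxia core.
Slc2a1, chr4:118965758-118965907, plus strand: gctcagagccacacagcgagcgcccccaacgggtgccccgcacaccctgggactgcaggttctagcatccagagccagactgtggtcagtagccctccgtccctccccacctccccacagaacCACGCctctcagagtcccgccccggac
Pklr upstream promoter, chr3:89043299-89043448, plus strand: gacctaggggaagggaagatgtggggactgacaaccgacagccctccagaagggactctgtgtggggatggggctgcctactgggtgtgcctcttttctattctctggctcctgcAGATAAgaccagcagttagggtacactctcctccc
Pklr downstream promoter, chr3:89043729-89043878, plus strand: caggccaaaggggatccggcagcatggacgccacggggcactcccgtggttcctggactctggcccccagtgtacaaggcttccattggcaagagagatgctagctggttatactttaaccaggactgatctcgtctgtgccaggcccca
Ldha, chr7:46494982-46495131, plus strand: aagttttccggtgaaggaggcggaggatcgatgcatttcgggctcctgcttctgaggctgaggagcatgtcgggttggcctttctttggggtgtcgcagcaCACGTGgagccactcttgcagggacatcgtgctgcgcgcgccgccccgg
The upstream Pklr promoter, which is known to serve red cells, held 1 GATA site whose first base lies 35 bases before the end of the stretch, and the downstream promoter, which is known to serve liver, held none of the motifs. The Ldha stretch held 1 E-box, first base 49 bases before its end, and the Slc2a1 stretch held 1 hypoxia core at 27 bases. Bases next to the RefSeq start were left out, 34 for Slc2a1, 51 for the downstream Pklr promoter and 96 for Ldha. The whole Slc2a1 window held 2 hypoxia cores and 2 KLF1 motifs, and the whole Ldha window 2 E-boxes, 5 hypoxia cores and 1 KLF1 motif. Over the 250 bases before every RefSeq start (GRCm38.p6; 61 promoters of 40 members, none found for Slc2a3), the E-box was in 9.84% of member promoters and 6.02% of all 32851 promoters, the hypoxia core in 70.5% and 38.6%, the GATA site in 21.3% and 16.6%, and the KLF1 motif in 70.5% and 45.9%. An ATF4-type site, TGATGNAA, was in 0 of the 61 member promoters and in 3.45% of all promoters. Member promoters were also richer in G and C, with a median of 58.8% against 52.4% over all promoters, and the part of base composition in these shares was not tested.

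Maturation of WT erythroblasts from S1 to S3 moved genes of the pathway in both directions, in shares near those of all genes. Of 39 members tested, 13 were higher and 16 lower at S3, beside 30.6% and 35% of all 13514 genes tested. These counts include Tigar and Pfkfb3, which passed the filter on low counts through S1 alone, and Aldoc, which passed it through S3 alone, so that their differences are given as descriptions. Eno2 and Pdk4 were too low to test, with 0 to 3 counts of Eno2 and 0 to 5 counts of Pdk4 in any library. The median log2 fold change was -0.34 over the members and -0.08 over all genes. The largest rises were those of Bpgm, Slc2a1, Taldo1, Pfkfb2 and Pfkfb1, and the largest falls those of Tigar, Hk2, Pfkfb3, Pkm and Ldha. The balance of directions depended on scaling, as TMM factors were 1.33 to 1.51 in S1 libraries and 0.66 to 0.77 in S3 libraries. With library totals in place of TMM factors the median of all genes moved to -1.15, and 7 members were higher and 25 lower (13.3% and 64.3% of all genes). Under upper-quartile factors the median of all genes was -0.24, with 12 members higher and 17 lower (26.7% and 38.7% of all genes).

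**Figure D2:**
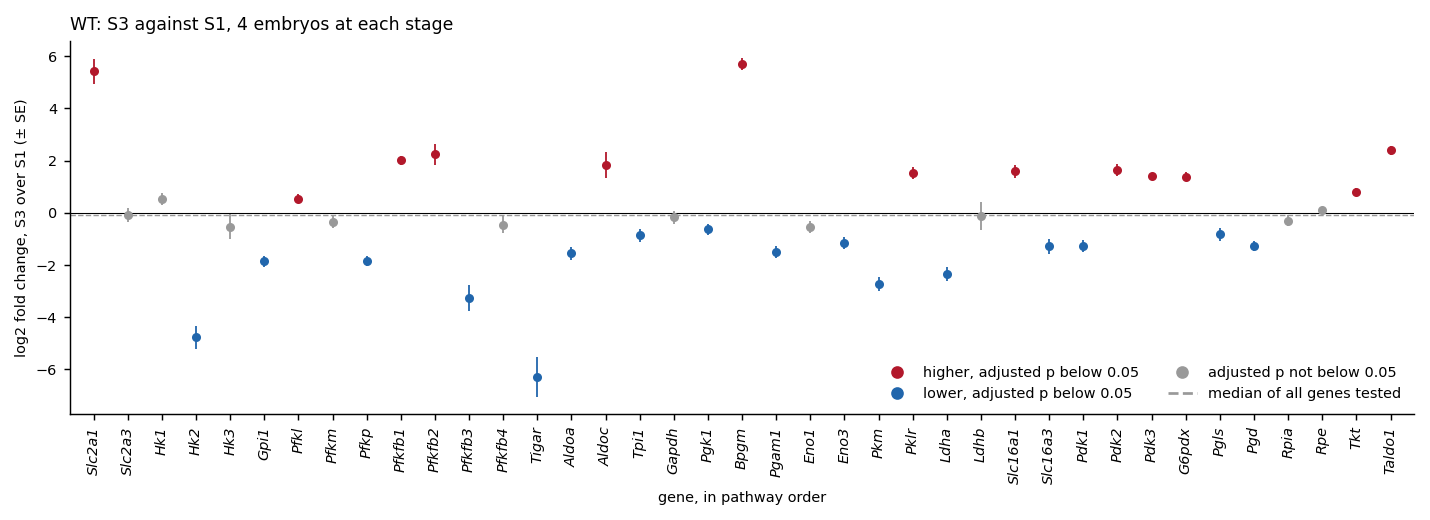
Log2 fold change of each tested member at S3 over S1 in WT embryos (4 libraries at each stage); points are estimates, bars are standard errors, red and blue mark adjusted p below 0.05, and the dashed line is the median of all genes tested. Bpgm at 5.70 and Slc2a1 at 5.42 lie far above the rest, and Tigar at -6.29 and Hk2 at -4.77 far below.

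At S3 nearly all transcripts of the glucose carriers among the 41 genes were those of Slc2a1, which encodes GLUT1, the main glucose carrier of erythroid cells. Uptake itself was not measured. Its level was 23.8, 8.78, 15.9 and 37.5 FPKM in WT S1 libraries and 1013, 601, 708 and 1282 FPKM in WT S3 libraries, a log2 fold change of 5.42 (SE 0.47, adjusted p = 4.64e-06). Every S3 library was above every S1 library, and Slc2a1 went from rank 21 among the 41 genes to the top, although its range at S3 overlapped that of Taldo1. Slc2a3, encoding the GLUT3 carrier, was at 2.87 to 8.18 FPKM at S1 and 4.18 to 5.41 FPKM at S3 and did not pass the test, with a log2 fold change of -0.08 (SE 0.26, adjusted p = 0.802) that turned to 0.18 without WT embryo 8. Of the summed FPKM of both carriers, Slc2a1 made up 79.5 ± 3.6% (SD, n = 4) at S1 and 99.4 ± 0.116% at S3. This share leaves out Slc2a4, a carrier outside the 41 genes, which was at 25.2 to 41.1 FPKM in WT S3 libraries.

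Hexokinase traps glucose in the cell, and Hk1, the isoform known from red cells, led at both stages. Hk1 was at 27.9, 19.98, 27.4 and 45.9 FPKM at S1 and 47.4, 33.2, 40.1 and 52.1 FPKM at S3. The stages overlapped and the difference missed the threshold, with a log2 fold change of 0.53 (SE 0.23, adjusted p = 0.0672), which passed without WT embryo 8 (0.70, adjusted p = 0.00907) and in the fit blocked by embryo (0.56, adjusted p = 0.0044). With library totals it turned to -0.51. Hk2, an isoform of growing and glycolytic cells, was at 1.5, 2.21, 2.13 and 0.967 FPKM at S1 and fell to 0.0719, 0.0999, 0.0448 and 0.0243 FPKM at S3, a log2 fold change of -4.77 (SE 0.43, adjusted p = 6.56e-06). Hk3 stayed below 1 FPKM in WT libraries at both stages, and its share of hexokinase transcripts never passed 2.57% there. Summed neutrophil markers were at 196, 1280, 1105 and 121 CPM at S1 and 4.85, 3.4, 1.11 and 2.82 CPM at S3, and were highest at S1 in embryos 1 and 5, the S1 libraries with the most Hk2 and Hk3. Their part in the hexokinase values was not tested. The Hk1 share of the step was 92.5 ± 4.06% at S1 and 99.2 ± 0.4% at S3.

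In upper glycolysis, from glucose-6-phosphate to triose phosphates, 2 genes were higher and 4 lower of 7 tested, beside 30.6% and 35% of all genes. Gpi1, the glucose-6-phosphate isomerase, was at 49.8, 65.1, 76 and 52.4 FPKM at S1 and 13.9, 19.4, 21.2 and 12.5 FPKM at S3, a log2 fold change of -1.86 (SE 0.22, adjusted p = 3.67e-05). Aldoa, the main aldolase, fell from 206, 234, 290 and 150.4 FPKM to 61.1, 75.8, 97.9 and 65 FPKM, a log2 fold change of -1.56 (SE 0.23, adjusted p = 1.98e-04). Both genes were lower in every S3 library than in every S1 library. Tpi1, which interconverts the triose phosphates, fell by 0.86 on the log2 scale (SE 0.26, adjusted p = 0.0122), a call lost without WT embryo 0 (adjusted p = 0.0617). Aldoc, a minor aldolase with 3 to 24 counts per WT library, had a log2 fold change of 1.85 and gave at most 0.514% of aldolase FPKM.

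Phosphofructokinase commits sugar to glycolysis as a tetramer of liver-type (Pfkl), muscle-type (Pfkm) and platelet-type (Pfkp) subunits, and the genes of these subunits parted ways. Pfkl was at 41.3, 32.5, 47.1 and 58.1 FPKM at S1 and 58.1, 65.3, 76.9 and 56.7 FPKM at S3, a log2 fold change of 0.54 (SE 0.18, adjusted p = 0.0207). It missed the threshold without WT embryo 0, 1 or 5 (adjusted p = 0.0753, 0.0813 and 0.121), under upper-quartile factors and with no filter, and turned to -0.50 with library totals. Pfkm, at 11.4 to 29.2 FPKM and 13.4 to 18.2 FPKM, did not pass, with a log2 fold change of -0.34 (SE 0.23, adjusted p = 0.23), and passed without WT embryo 1 (-0.60, adjusted p = 0.0225). Pfkp fell from 1.62, 1.95, 2.8 and 1.97 FPKM to 0.522, 0.507, 0.647 and 0.627 FPKM, a log2 fold change of -1.85 (SE 0.20, adjusted p = 2.19e-05). The shares of the step went from 67.6 ± 2.77% Pfkl, 29.1 ± 3.79% Pfkm and 3.28 ± 1.04% Pfkp at S1 to 80.0 ± 1.64%, 19.3 ± 1.69% and 0.724 ± 0.119% at S3 (mean ± SD, n = 4). With the length of the canonical transcript, which is far shorter than the summed exons for Pfkp, its share was 7.02% and 1.52%.

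Fructose-2,6-bisphosphate, the strongest known activator of phosphofructokinase, is made and removed by the bifunctional PFKFB enzymes and removed by Tigar, all of low abundance here. Pfkfb1 was at 0.725, 0.898, 0.699 and 1.05 FPKM at S1 and 3.33, 3.7, 3.03 and 3.46 FPKM at S3, a log2 fold change of 2.01 (SE 0.19, adjusted p = 7.56e-06), and Pfkfb2 rose with a log2 fold change of 2.24 (SE 0.41, adjusted p = 7.26e-04). Pfkfb3, the isoform with the highest kinase activity, had 65, 74, 105 and 135 counts at S1 and 11, 1, 6 and 2 counts at S3, a log2 fold change of -3.27. Pfkfb4 did not pass, with a log2 fold change of -0.46 (SE 0.33, adjusted p = 0.25). The shares of Pfkfb1 and Pfkfb2 in the step were 44.9 ± 6.83% and 13.2 ± 5.38% at S1 and 67.7 ± 6.4% and 24.5 ± 4.4% at S3. Tigar had 21, 82, 45 and 56 counts in the S1 libraries and 1 count over all 4 S3 libraries, in embryo 5. The pooled rate was 106 times as high at S1, with an exact 95% counting interval of 18.8 to 4200 that covers counting error only.

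In lower glycolysis, which yields ATP, 2 genes were higher and 4 lower of 8 tested, beside 30.6% and 35% of all genes. Bpgm, which makes 2,3-bisphosphoglycerate, was at 13.6, 8.92, 10.1 and 17.3 FPKM at S1 and 584, 648, 586 and 749.6 FPKM at S3, a log2 fold change of 5.70 (SE 0.24, adjusted p = 2.15e-07). Pgam1, the mutase that turns 3-phosphoglycerate into 2-phosphoglycerate in glycolysis, fell from 66, 79, 99.7 and 53.6 FPKM to 23.6, 28.7, 32.6 and 19.98 FPKM, a log2 fold change of -1.51 (SE 0.23, adjusted p = 2.10e-04). Pgam1 was above Bpgm in every WT S1 library and below it in every WT S3 library. Gapdh, which makes NADH, was at 602, 716, 916 and 437 FPKM at S1 and 468, 687, 699.7 and 527 FPKM at S3 and did not pass, with a log2 fold change of -0.17 (SE 0.25, adjusted p = 0.565). Pgk1, the first ATP-making step, fell by 0.63 on the log2 scale (SE 0.22, adjusted p = 0.0257), and the call was lost without WT embryo 0 (adjusted p = 0.0918) or 1 (adjusted p = 0.0716). Eno1, the leading enolase, was at 235 to 387 and 161 to 269 FPKM. Its log2 fold change of -0.54 (SE 0.24, adjusted p = 0.0736) missed the threshold, and passed in the fit blocked by embryo (-0.53, adjusted p = 0.00747). The fall also passed under upper-quartile factors (adjusted p = 0.0258), with no filter (0.0466), with all 16 libraries in 1 fit (0.0336) and with library totals. Eno3, with 0.472% to 1.25% of enolase FPKM, fell by 1.17 (SE 0.23, adjusted p = 0.00111).

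Pyruvate kinase, the last ATP-making step, changed its leading gene. Pkm, the form of most tissues and of dividing cells, was at 76.4, 114, 142 and 84.3 FPKM at S1 and 12.9, 14.1, 21.9 and 14.3 FPKM at S3, a log2 fold change of -2.72 (SE 0.26, adjusted p = 8.10e-06). Pklr, whose upstream promoter gives the red cell enzyme, was at 32.4, 15.9, 25.8 and 42.3 FPKM at S1 and 88.6, 78.8, 75.5 and 88.4 FPKM at S3, a log2 fold change of 1.53 (SE 0.24, adjusted p = 2.76e-04). No WT S1 library had more Pklr than Pkm, and no WT S3 library had more Pkm than Pklr. Pklr made up 29.8, 12.2, 15.3 and 33.4% of the step at S1 and 87.3, 84.9, 77.5 and 86% at S3, with the highest S1 values in the male embryos 0 and 8. Those S1 libraries also had more globin, at 1.07% and 1.00% of counts against 0.184% and 0.291% in embryos 1 and 5. The switch kept its order with canonical transcript lengths (12.2% and 70.9%) and with raw counts (16.2% and 77.2%). With library totals the fall of Pkm held and the rise of Pklr missed the threshold (0.49, adjusted p = 0.106). Pklr shares 21.97% of its exon bases with its neighbour Hcn3 and Pkm 15.3% with Gm49759, and reads there can be assigned to either gene or dropped.

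**Figure D3:**
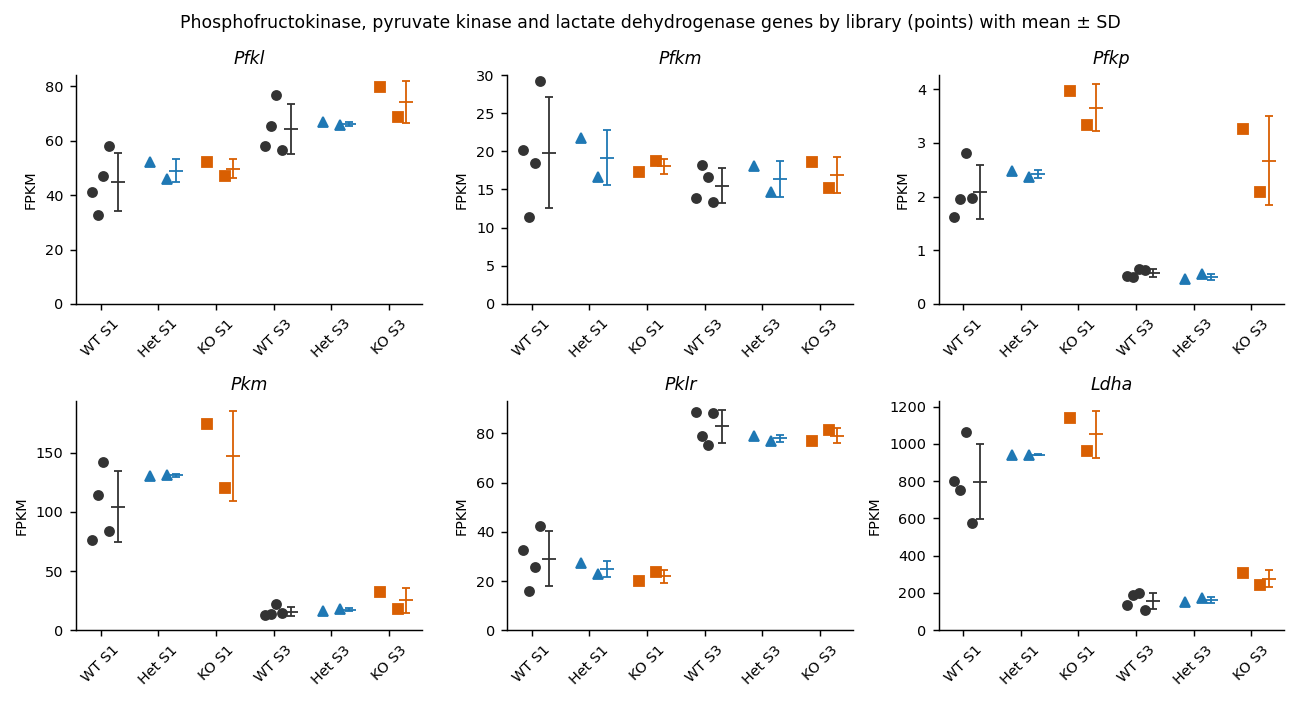
FPKM of the phosphofructokinase subunits Pfkl, Pfkm and Pfkp, of the pyruvate kinases Pkm and Pklr, and of Ldha in each library, with the mean ± SD of the group beside the points. Pkm and Pklr change places between S1 and S3, and Pfkp is above all WT libraries in both KO libraries at each stage.

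In lactate handling, the enzyme Ldha fell and the carrier Slc16a1 rose. Ldha, which turns pyruvate into lactate, was the highest of the 41 genes at S1, at 802, 751, 1064 and 577 FPKM, although its range overlapped that of Gapdh, and was at 137, 187, 198 and 106 FPKM at S3, a log2 fold change of -2.35 (SE 0.26, adjusted p = 2.40e-05). It made up at least 98.2% of lactate dehydrogenase FPKM in every library, with Ldhb at 0.637 to 3.36 FPKM in WT and no call for it, at a log2 fold change of -0.12 (SE 0.52, adjusted p = 0.853) whose sign turned in the block by embryo (0.04) and without WT embryo 1 (0.42) or 5 (0.07). Slc16a1, the lactate and pyruvate carrier MCT1, rose from 72.7, 46.9, 69.6 and 113 FPKM to 238, 177, 202 and 284 FPKM, a log2 fold change of 1.597 (SE 0.25, adjusted p = 2.37e-04). Slc16a3, the carrier MCT4 of strongly glycolytic cells, went from 22.5, 10.3, 28 and 25.8 FPKM to 7.33, 8.61, 11.9 and 7.43 FPKM, a log2 fold change of -1.28 (SE 0.28, adjusted p = 0.00243). The share of Slc16a1 among both carriers was 77.8 ± 4.95% at S1 and 96.1 ± 1.41% at S3. With library totals the rise of Slc16a1 missed the threshold (0.55, adjusted p = 0.0686).

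Pyruvate dehydrogenase kinases, which inhibit pyruvate dehydrogenase in the mitochondrion, also changed their mix. Pdk1, known as a target of hypoxia signalling, fell from 18, 12.2, 17.6 and 28.8 FPKM to 7.54, 8.86, 8.53 and 6.5 FPKM, a log2 fold change of -1.27 (SE 0.22, adjusted p = 5.51e-04). Pdk3 rose from 32.2, 28.9, 35.2 and 35.4 FPKM to 75.3, 88.6, 98.1 and 83.4 FPKM, a log2 fold change of 1.40 (SE 0.13, adjusted p = 7.59e-06), and Pdk2 rose from lower levels with a log2 fold change of 1.64 (SE 0.23, adjusted p = 1.20e-04). Pdk3 led the step per length at both stages, at 60.6 ± 6.11% and 83.3 ± 2.4%, whereas in raw counts at S1 Pdk1 led with 60.2%.

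Pentose phosphate genes split as well. G6pdx, which opens the oxidative branch and makes NADPH, was at 35.2, 28.6, 39.8 and 41 FPKM at S1 and 92.3, 84.1, 84.1 and 116 FPKM at S3, a log2 fold change of 1.39 (SE 0.16, adjusted p = 3.22e-05), and the rise missed the threshold with library totals (0.36, adjusted p = 0.0598). The enzymes that follow it in that branch went down: Pgd, the second NADPH-making step, from 13.9, 8.55, 15.5 and 15 FPKM to 4.83, 5.71, 5.29 and 5.95 FPKM, a log2 fold change of -1.27 (SE 0.19, adjusted p = 1.58e-04), and Pgls by 0.82 (SE 0.24, adjusted p = 0.0117), a call lost without WT embryo 0 (adjusted p = 0.0634). Per canonical transcript Pgls and not G6pdx had the highest level of the branch at both stages. In the non-oxidative branch, which shuttles carbon between pentoses and glycolysis, Taldo1 (transaldolase) rose from 139, 152, 144 and 112 FPKM to 622, 734, 740.2 and 772 FPKM, a log2 fold change of 2.39 (SE 0.16, adjusted p = 1.21e-06). Tkt (transketolase) rose less, with a log2 fold change of 0.79 (SE 0.16, adjusted p = 0.00159), and turned to -0.24 with library totals. Rpia and Rpe, which interconvert the pentose phosphates, did not pass, at -0.31 and 0.11, and Rpe turned to -0.06 under upper-quartile factors and to -0.91 with library totals.

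**Figure D4:**
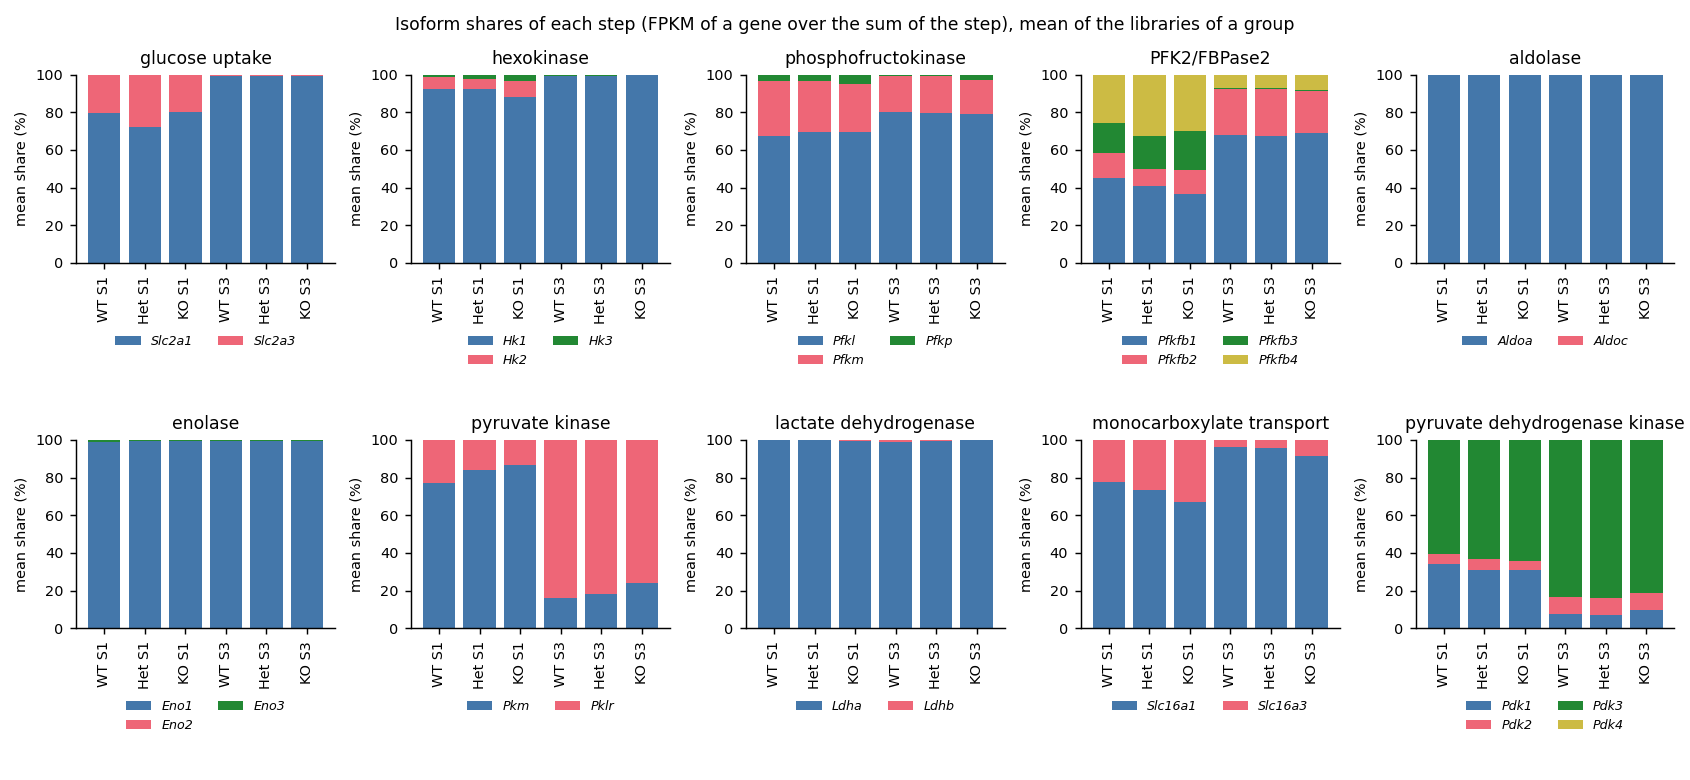
Share of each gene in the summed FPKM of its step, as the mean over the libraries of a group (4 WT, 2 Het and 2 KO embryos); each bar adds up to 100%. From S1 to S3 the shares of Pkm, Slc2a3 and Slc16a3 shrink and those of Pklr, Slc2a1 and Slc16a1 grow in all 3 genotypes.

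Isoform shares of Het and KO embryos are described without a test. The Slc2a1, Slc16a1 and Pklr shares were higher in every S3 library than in every S1 library of each genotype. The Ldha share was lower at S3 in every WT embryo, by 0.826 percentage points on average, and its stages overlapped in KO, with a mean difference of 0.0433 points. Pklr made up 17.2 and 14.7% of pyruvate kinase in Het S1 and 82.6 and 80.7% in Het S3 libraries, and 10.3 and 16.5% in KO S1 and 70.2 and 81.9% in KO S3 libraries. KO embryo 2 had the lowest Pklr share of all libraries at each stage, while KO embryo 9 lay inside the WT range at both. Slc16a3 held a larger share of the lactate carriers in both KO libraries than in any WT library, at 34.8 and 30.7% against at most 28.7% at S1 and at 10.3 and 6.56% against at most 5.56% at S3. Pfkp did the same among phosphofructokinases, at 5.38 and 4.83% against at most 4.25% at S1 and at 3.2 and 2.42% against at most 0.887% at S3. Pfkl remained the leading subunit in all KO libraries.

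Without Nprl3, S3 erythroblasts had more Pfkp, the platelet-type subunit of phosphofructokinase, and no other member passed the test. Of 36 members tested at S3, 1 was higher and 0 lower in KO than in WT, beside 0.457% and 0.102% of 11804 genes; Hk2, Pfkfb3, Tigar, Eno2 and Pdk4 were too low to test. Leaving out 1 embryo left 9 to 41 genes higher and 0 to 5 lower, against 54 and 12 with all embryos, with the fewest higher without WT embryo 8 (9) or 0 (11), and Pfkp remained the 1 member called. There were 10 members with an unadjusted p under 0.05, and 1006 such genes in all. The median log2 fold change was 0.14 over the members and 0.01 over all genes, and 24 members were above 0.

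Pfkp was at 0.522, 0.507, 0.647 and 0.627 FPKM in WT S3 libraries, 0.461 and 0.548 FPKM in Het and 3.25 and 2.08 FPKM in KO. Both KO libraries were above every other S3 library and above or within the WT S1 range. The difference from WT was a log2 fold change of 2.23 (SE 0.21, adjusted p = 0.0091), and it was called in every alternative run, between 1.86 without KO embryo 2 and 2.52 without KO embryo 9. Without either embryo 1 KO library remains, which is assumed to vary like the WT libraries. Pfkp is also abundant in platelets, and summed megakaryocyte markers were at 99 and 175 CPM in KO and 95.9 to 149.9 CPM in WT S3 libraries, so that KO embryo 2, which had the most Pfkp, was inside the WT range and KO embryo 9 above it. Macrophage markers were lower in KO, at 37.5 and 24.6 CPM against 48.2 to 100.1 CPM. The part of either marker list in the level of Pfkp was not tested. Pfkp lies at chr13:6629804-6698813 on the minus strand (GRCm39) and shares 5.58% of its exon bases with Pitrm1.

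**Figure D5:**
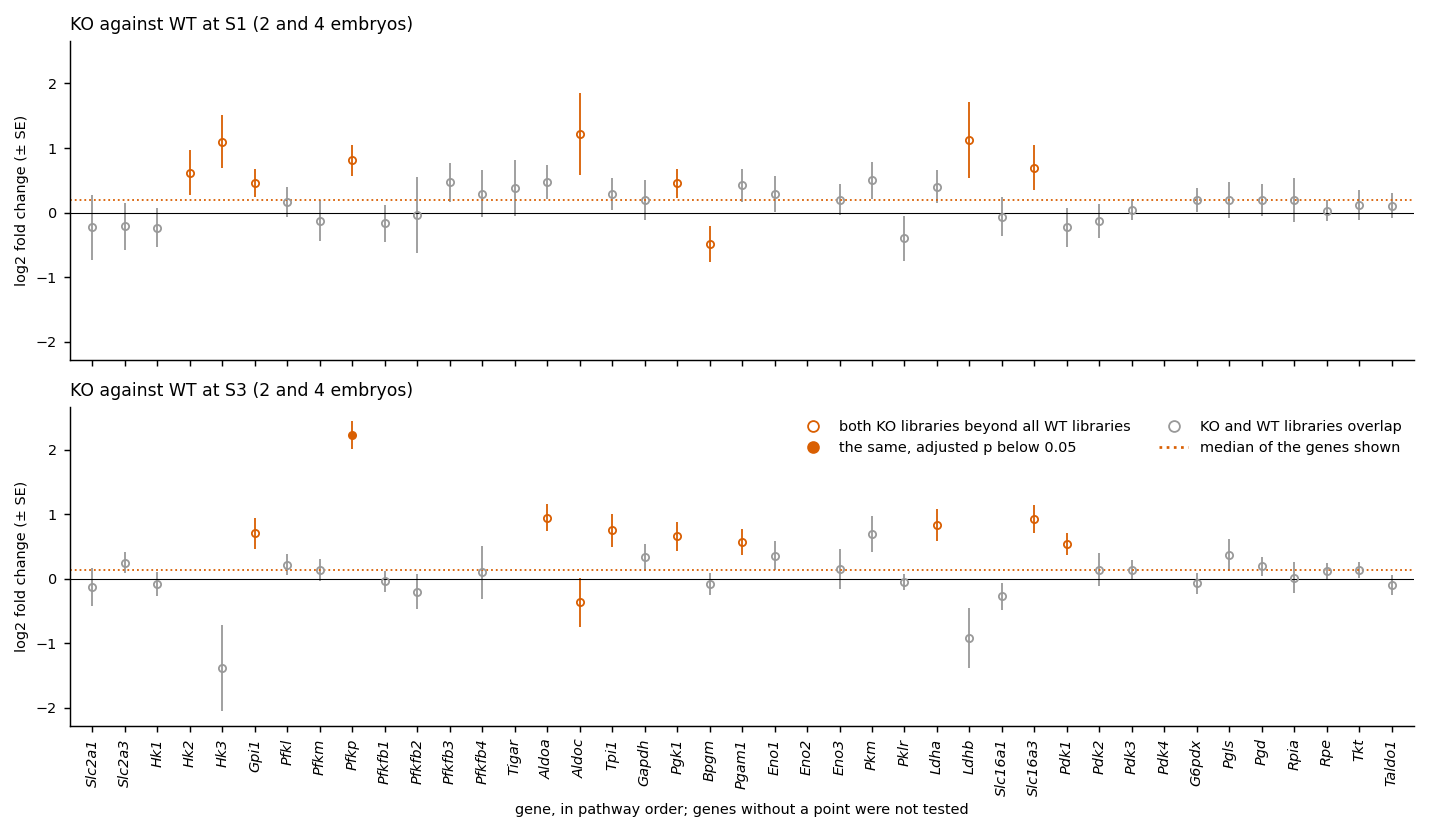
Log2 fold change of KO (2 embryos) against WT (4 embryos) for each member at S1 (upper panel) and S3 (lower panel), with standard errors; orange marks genes whose KO libraries both lie beyond all WT libraries, a filled point marks adjusted p below 0.05, and the dotted line is the median of the genes shown. Pfkp at S3, at 2.23, is the single filled point.

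At S3 both KO libraries were above all WT libraries for 9 members and below for 1, against 9.18% and 9.36% of all genes tested. Beside Pfkp these were Gpi1, Aldoa, Tpi1, Pgk1, Pgam1, Ldha, Slc16a3 and Pdk1, and the gene below was Aldoc. All but Pfkp missed the threshold. Aldoa was at 162 and 123 FPKM in KO against 61.1 to 97.9 FPKM in WT, a log2 fold change of 0.94 (SE 0.21, adjusted p = 0.128). Slc16a3 was at 18.5 and 14.6 FPKM against 7.33 to 11.9 FPKM, a log2 fold change of 0.92 (SE 0.22, adjusted p = 0.162). Both KO S3 libraries reached into the range of the WT S1 libraries for Slc16a3, Tpi1 and Pgk1, as did KO embryo 2 for Aldoa and Pdk1. WT S3 embryo 5 already lay in that range for Slc16a3 (11.87 FPKM) and Pgk1 (98.8 FPKM). Summed erythroid markers were at 158700 and 162800 CPM in KO S3 libraries against 174000 to 211700 CPM in WT. Progenitor markers were at 29.1 and 41.8 CPM against 17.6 to 32 CPM, so that KO embryo 2 was inside the WT range. The part of either list in these levels was not tested. Ldha was at 309 and 244 FPKM in KO and 106 to 198 FPKM in WT, with a log2 fold change of 0.83 (SE 0.24, adjusted p = 0.287). Pdk1, at 12.4 and 10.2 FPKM against 6.5 to 8.86 FPKM, gave 0.54 (SE 0.17, adjusted p = 0.308), and Gpi1, at 31.4 and 22.6 FPKM against 12.5 to 21.2 FPKM, gave 0.70 (SE 0.24, adjusted p = 0.379). The estimates for Tpi1, Pgk1 and Pgam1 were 0.75, 0.65 and 0.56, with adjusted p-values of 0.396, 0.376 and 0.421. Tpi1 was at 416 and 323 FPKM against 145 to 289 FPKM, Pgk1 at 131 and 104.5 FPKM against 56.1 to 98.8 FPKM and Pgam1 at 41.5 and 35.4 FPKM against 19.98 to 32.6 FPKM. KO embryo 2 was the higher of the pair for every one of these genes. For the 5 genes with the largest rises in WT the estimates in KO were -0.08 for Bpgm, -0.12 for Slc2a1, -0.09 for Taldo1, -0.20 for Pfkfb2 and -0.04 for Pfkfb1, and for each the KO and WT libraries overlapped.

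How many of these genes were called depended on whether sex was in the model. With sex as a term, edgeR called 11 members higher, beside 2.41% of all genes, and DESeq2 called 12, beside 2.57%; neither called a member lower. The edgeR calls were Pdk1, Pgk1, Tpi1, Aldoa, Ldha, Gpi1, Pgls, Pkm, Slc16a3, Pfkp and Pgam1. DESeq2 without sex called 3 (Aldoa, Slc16a3 and Pfkp; 0.981% of all genes), and edgeR with no filter on low counts called 6 (0.936%). With sex in edgeR the estimates were close to those without it, as for Aldoa at 0.95 (SE 0.11, adjusted p = 0.000674) and Ldha at 0.86 (SE 0.12, adjusted p = 0.00179), whereas their standard errors were smaller. The sexes differed within the WT group for these genes: at S3 both WT males were below both WT females for 15 of the 36 members, beside 29.4% of all genes, and for 8 of the 9 members that were higher in KO. In those 8 the KO male was also below the KO female. Males were below females in both WT and KO for 14 of the 36 members, beside 25.4% of all genes. With 2 embryos of each sex, sex cannot be told apart from anything else these embryos share, and summed hepatoblast markers moved with it, at 1005, 302, 225 and 624 CPM in WT and 103.5 and 272 CPM in KO S3 libraries. The part of these markers, and of the lower globin share of KO libraries, was not tested.

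At S1, 0 of 39 members were called in either direction between KO and WT by edgeR, beside 0% higher and 0.00712% lower of 14039 genes. No member was called in the other fits either, where more of all genes passed, at 0.128% higher and 0.0214% lower by edgeR with sex, 0.205% and 0.0483% by DESeq2, and 0.894% and 0.309% by DESeq2 with sex. At an unadjusted p under 0.05 there were 2 members, Pfkp and Hk3, and 355 genes in all. The median log2 fold change was 0.20 over the members and -0.01 over all genes. Both KO libraries were above all WT libraries for 8 members (6.57% of all genes) and below for 1 (3.26%). Pfkp was again among them, at 3.96 and 3.34 FPKM in KO and 1.62, 1.95, 2.8 and 1.97 FPKM in WT, with a log2 fold change of 0.81 (SE 0.24, adjusted p = 1). So were Gpi1, Pgk1 and Slc16a3, with estimates of 0.46, 0.45 and 0.70, and Slc16a3 was at 36.6 and 33.1 FPKM against 10.3 to 28 FPKM. Hk2 at 2.78 and 2.44 FPKM against 0.967 to 2.21 FPKM, Hk3 at 0.756 and 1.09 FPKM against 0.228 to 0.586 FPKM, and the low genes Aldoc and Ldhb completed the 8, with estimates of 0.62, 1.10, 1.21 and 1.12. Bpgm was the gene below, at 8.917 and 8.716 FPKM against 8.923 to 17.3 FPKM (-0.49), so that the nearest libraries were almost level. Markers of neutrophils, which are rich in Hk3, moved the same way: their summed level was 1573 and 1652 CPM in KO, 1535 and 1520 CPM in Het and 196, 1280, 1105 and 121 CPM in WT S1 libraries, with Mpo the highest gene and Ly6g at 0 in every S1 group. Macrophage markers were also higher in KO S1 libraries, at 69.1 and 69.9 CPM against 33.4 to 54.8 CPM in WT. The part of either list in the S1 values was not tested. Globin at S1 was 0.0738% and 0.306% of counts in KO libraries.

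Whether the KO effect differed between stages was tested as an interaction over WT and KO libraries. None of 39 members passed by edgeR, beside 0.00742% higher and 0% lower of all 13485 genes. At an unadjusted p under 0.05 there were 3 members and 420 genes. DESeq2 called 0 members, and 5 genes higher and 7 lower in all. Pfkp came closest, with an interaction of 1.41 (SE 0.35, unadjusted p = 0.00151) and an adjusted p of 1. Its KO effect was 0.81 at S1 and 2.23 at S3. Ldhb gave -2.06 (SE 0.84, unadjusted p = 0.0309), with KO effects of 1.12 at S1 and -0.92 at S3. Hk3 is given as a description, since at S3 it passed the filter on low counts through the WT libraries alone, with 5 and 9 counts in KO and 38, 12, 43 and 7 counts in WT.

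Het embryos, which carry 1 intact allele, had 0 of 39 members called at S1 and 0 of 36 at S3, and 0% of all genes passed in either direction at either stage. At an unadjusted p under 0.05 there were 1 member (Rpia) and 589 genes at S1 and 0 members and 373 genes at S3. DESeq2 without sex also called 0 members at either stage, with 0 genes higher and 30 lower in all at S1 and 0 higher and 1 lower at S3. The medians were 0.13 over the members and 0.00 over all genes at S1, and -0.07 and -0.02 at S3. Both Het libraries were above all WT libraries for 3 members at S1 (Hk3, Eno3 and Taldo1, beside 10.6% of all genes) and below for 3 (Bpgm, Rpia and Rpe, beside 8.22%). Taldo1, at 152.2 and 158.9 FPKM against at most 151.5 FPKM in WT, overlapped when the Het and WT S1 libraries were scaled on their own. At S3 they were above for Tkt (6.96%) and below for Slc2a3 (6.26%). Pfkp was inside or below the WT range in Het, at 2.47 and 2.37 FPKM at S1 and 0.461 and 0.548 FPKM at S3, with estimates of 0.21 (SE 0.24, adjusted p = 0.905) and -0.20 (SE 0.20, adjusted p = 0.901). Among the genes that were high in KO S3 libraries, the fit without sex gave -0.04 for Aldoa, 0.03 for Ldha and -0.05 for Slc16a3 in Het at S3. Both Het embryos are male, so a fit with sex sets them against the 2 WT males. EdgeR then called 3 members higher at S3 (Gapdh, Gpi1 and Pgls; 8.84% of all genes) and 4 lower (Slc2a1, Slc2a3, Hk1 and Slc16a1; 9.25%), among them Slc2a1 at -0.79 (SE 0.16, adjusted p = 0.00821). DESeq2 with sex called 6 higher and 4 lower at S3 (13.2% and 9.29% of all genes) and 2 higher and 2 lower at S1 (1.96% and 2.76%). The 6 included Ldha at 0.42 (adjusted p = 0.00724), Gpi1 at 0.36 (adjusted p = 0.0186) and Tpi1 at 0.35 (adjusted p = 0.0319). These also had both KO S3 libraries above all WT libraries. The other genes with that position in KO were not called in Het at S3.

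Genes next to the pathway were counted from a list of 53 neighbours (other carriers, glycogen enzymes, pyruvate dehydrogenase and its phosphatases) and a list of 12 regulators. Among 40 neighbours tested in WT, 6 were higher and 22 lower at S3, beside 30.6% and 35% of all genes, with a median log2 fold change of -0.905 against -0.08 over all genes. The largest rises were those of Slc2a4 (the GLUT4 carrier), with 0.0202 to 0.943 FPKM at S1, 25.2 to 41.1 FPKM at S3 and a log2 fold change of 6.20 (SE 0.78, adjusted p = 5.93e-05), of Bsg (the chaperone of MCT1), at 2.65 (SE 0.15, adjusted p = 4.92e-07), and of Mpc2 (a subunit of the mitochondrial pyruvate carrier), at 2.10 (SE 0.24, adjusted p = 2.80e-05). The largest falls were those of Ldhc, G6pc3, at -4.35 (SE 0.26, adjusted p = 6.65e-07), and H6pd, at -3.87 (SE 0.50, adjusted p = 7.24e-05). Ldhc, counted among the 22, passed the filter on low counts through S1 alone, with 197 counts over the WT S1 libraries and 1 over the WT S3 libraries, and is given as a description. Slc2a4 at S3 was far below Slc2a1 in every library. Among 10 regulators tested, 4 were higher and 4 lower at S3, beside the same shares of all genes, led by Klf1 at 2.23, Atf4 at 1.56 and Gata1 at 1.46 upwards, and by Myc at -3.62, Mlxip at -2.58 and Trp53 at -1.47 downwards. Between KO and WT at S3, 0 of 37 neighbours were called higher, beside 0.457% of all genes. No regulator was called in KO at either stage, beside 0.457% higher and 0.102% lower of all genes at S3 and 0% and 0.00712% at S1. With shares this low, lists of this size can hold no call without differing from all genes.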

How the data were processed

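Transcripts of sorted S1 and S3 erythroblasts were measured by RNA-seq of poly A RNA after whole-transcript amplification. The authors aligned paired reads to mm39 with STAR (2.7.9) and counted them per gene of Ensembl 104 with featureCounts (1.6.4), and the deposited table holds raw counts for 55416 genes. The 16 library columns whose names match the description field of the sample labels were used, and 4 other columns were not. Groups, sex and stage were taken from the sample labels, sex having been assigned by the study from reads of chromosome Y. Library totals ranged from 20666044 to 37609502 counts, so that low genes are limited by counting error, and the reads carry no molecular identifiers.

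Counts were tested with edgeR's quasi-likelihood test (edgeR 4.0.16, R 4.3.3) with TMM factors and Benjamini-Hochberg adjustment over all genes with a mean normalised count above 10, at a threshold of 0.05. Each comparison was fitted on its own libraries without covariates. FPKM is the CPM value under 1 set of TMM factors for all 16 libraries divided by the summed exon length, and isoform shares are fractions of the FPKM of a step, described without a test. Overlap of groups was read from the same FPKM. Alternatives were other scaling factors, no filter, DESeq2 (1.42.0), sex as a term, 1 fit for all libraries, a block by embryo and leaving out each embryo. Library totals as scaling and canonical transcript lengths were added after the data had been seen. The S1 and S3 libraries of an embryo come from the same foetal liver, which pairs them, and their departures from the group average correlated across 13402 genes at 0.0699, 0.225, 0.332 and 0.318 in WT embryos 0, 1, 5 and 8, 0.0462 in Het and 0.415 in KO embryos. The procedure was tested on simulated counts with known changes.

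The 41 genes, the lists of neighbours, regulators and cell type markers, and the tests were chosen with earlier results of these data known. Named genes are those called in a genotype comparison, those with both KO libraries beyond all WT libraries, the leading isoform of each step, and the 5 largest rises and falls with maturation, and the remaining members are given more briefly. Each replicate is an embryo. Promoters are from RefSeq (GRCm38.p6), located in GRCm39 by exact match. The result for 1 gene of the neighbour list is not reported here.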

Additional observations from a re-analysis of the deposited data

Results flagged for a closer look

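Within the WT groups, 3 of 77 sets of 4 FPKM values tested had 1 library set apart from the other 3 by Dixon's criterion, which chance alone meets in about 1 of 20 sets. Pkm at S3 was 21.9 FPKM in embryo 5, above the other WT libraries (ratio of gap to range 0.841). Pdk2 at S1 was 2.10 FPKM in embryo 1, below the others (0.895). Rpe at S1 was 25.7 FPKM in embryo 8, above the others (0.874).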

How the results depend on the processing

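With library totals as scaling, 7 members were higher and 25 lower at S3 in WT (13.3% and 64.3% of all genes), and 4 changed sign: Hk1 (-0.51), Pfkl (-0.50), Rpe (-0.91) and Tkt (-0.24). Other reversals were Rpe with upper-quartile factors (-0.059), Ldhb with the block by embryo (0.036), Ldhb without WT embryo 1 or 5 (range -0.61 to 0.42 over the embryos left out), and Slc2a3 without WT embryo 8 (range -0.21 to 0.18). None of the members that reversed was called in the main test except Pfkl and Tkt. Leaving out 1 embryo gave 12 to 14 higher and 13 to 16 lower members with maturation (3412 to 4294 and 3971 to 4570 of all genes), 1 to 1 higher and 0 to 0 lower in KO at S3 (9 to 41 and 0 to 5 of all genes, against 54 and 12 with all embryos), and 0 to 0 in the other comparisons. Blocking by embryo gave 14 higher and 17 lower with maturation (4499 and 4911 of all genes), and 0 in the interaction. In KO at S3, members called higher numbered 6 with no filter (0.936% of all genes), 3 by DESeq2 (0.981%), 11 by edgeR with sex (2.41%) and 12 by DESeq2 with sex (2.57%). In Het, DESeq2 with sex called 2 higher and 2 lower at S1 (1.96% and 2.76% of all genes) and 6 higher and 4 lower at S3 (13.2% and 9.29%). EdgeR with sex called 3 higher and 4 lower at S3 (8.84% and 9.25%). The cause of these changes was not tested. Genes with few counts, such as Eno2, Pdk4 and Tigar at S3, are limited by depth, and 2 KO embryos limit every genotype comparison.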
